A study of Mus musculus with 2 samples.

Results

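Postsynaptic scaffold genes encode the large adaptor proteins that hold receptors and signalling enzymes in place beneath the excitatory synapse. The 10 genes described here are Dlg1, Dlg2 and Dlg4, Dlgap1 and Dlgap2, Magi1 and Magi2, Shank2 and Shank3, and Anks1b. They were chosen by name from 21523 coding genes, with earlier results of these data known, so their counts are a description. A peak was assigned to a gene when it overlapped the gene body extended by 2 kb on both sides. The peaks are those of H3K9me2 (histone H3 dimethylated at lysine 9) in the cortex of mouse embryos of the C57BL/6 strain, taken at embryonic day 15.5. One library came from wild-type cortex and 1 from cortex carrying TBC1D3, a hominoid gene, as a transgene; the labels name neither the promoter that drives it nor the number of embryos in a library. With 1 library per genotype there was no replicate check, no p-value was computed, and the intervals given cover counting error only. The tissue is whole cortex, so the lists average over its cell types, and peak lists carry no expression values by which the tissue label could be checked.

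H3K9me2 is a repressive mark of silent chromatin, deposited in large part by the methyltransferases G9a (Ehmt2) and GLP (Ehmt1). It typically forms broad domains rather than sharp peaks. DLG proteins, among them PSD-95 (Dlg4), bind receptor tails through PDZ domains. SAPAP proteins (Dlgap genes) link DLG proteins to SHANK proteins, which reach the actin cytoskeleton. MAGI proteins are inverted relatives of the DLG proteins with PDZ and WW domains. In the mid-gestation cortex most neurons are newly born and few synapses have formed.

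The wild-type list held 743 peaks from 26735120 ChIP tags and the transgenic list 6253 from 20697113 tags. The peaks are weak in both: the median rested on 6 fragments in each list. The lowest q of a wild-type peak was 0.136, and that of a transgenic peak 0.0673. The fragment extension used in the call was 57 bp for the wild type and 111 bp for the transgenic, so genotype, library and call settings cannot be told apart. Peak numbers are therefore read below against the mean density of the same list on the same chromosome, and never as a difference between genotypes. The share of wild-type peaks given below is an exception in that it pools both lists. It sets the scaffold genes beside all peaks and is not read as a difference between genotypes either.

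The transgenic list placed 20 peaks in the scaffold genes, and the wild-type list placed 1. Transgenic peaks were found in 6 of the 10 genes (Dlg2, Dlgap1, Dlgap2, Magi2, Shank2 and Anks1b) and a wild-type peak in 1 (Dlgap1). Over all coding genes 5.69% held a transgenic and 0.911% a wild-type peak. Those shares are no fair measure for these genes, which are long. Their median length was 683 kb, and the share of genes with a transgenic peak rose from 2.58% of coding genes under 100 kb to 24.5% at 100 to 500 kb, 81.0% at 500 kb to 1 Mb and 94.9% over 1 Mb. At the share of its own length class for each gene, 5.82 of the 10 genes would hold a transgenic peak, beside the 6 seen. The wild-type shares of the same classes were 0.236%, 4.37%, 19.0% and 39.0%, which give 1.83 genes beside the 1 seen.

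The number of peaks was also near the density of the chromosomes. The genes span 7.53 Mb in all. At the mean transgenic density of each gene's chromosome they would hold 18.1 peaks beside the 20 seen, which is a ratio of 1.10 (95% interval 0.674 to 1.70). At the wild-type density they would hold 2.34 beside the 1 seen, a ratio of 0.427 (0.0108 to 2.38). Wild-type peaks made up 4.76% of the 21 peaks in the genes (exact Clopper-Pearson 95% interval 0.12 to 23.8), and 10.6% of all peaks of both lists. That share lies inside the interval, so a difference between the scaffold genes and the rest in this respect was not detectable with 21 peaks. In none of the 10 genes did the 95% interval of the ratio to the chromosome exclude 1, in either library; against coding gene bodies alone it did so for the transgenic peaks of Anks1b.

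**Figure D1:**
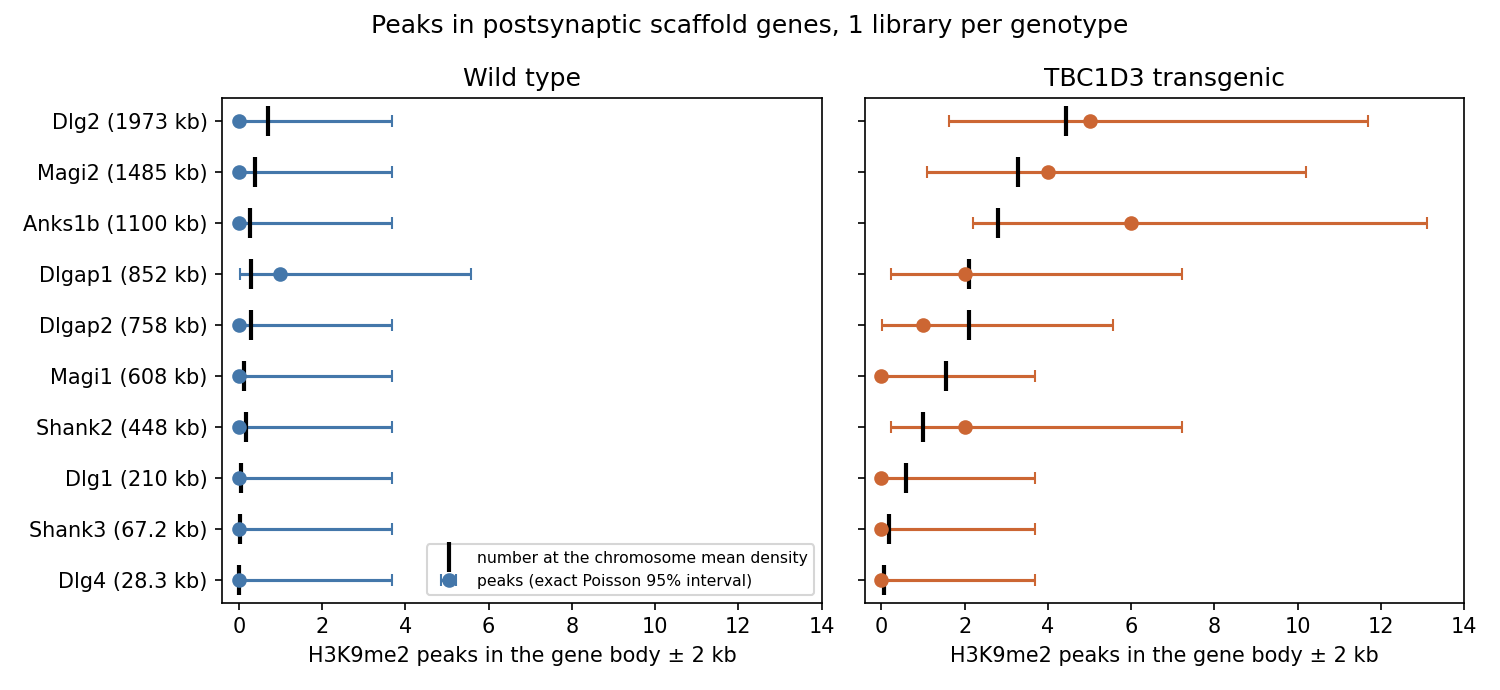
Peaks in each scaffold gene (body ± 2 kb) in the wild-type (left) and the transgenic list (right), genes ordered by length. Points are peak counts of 1 library with exact Poisson 95% intervals, and black ticks are the number at the mean density of the gene's chromosome. Every interval includes its tick, and Anks1b lies farthest above it with 6 peaks where the chromosome gives 2.80.

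Peaks are known here by position only, but the sequence at the starts of these genes was at hand. RefSeq start sites of GRCm38.p6 were listed for 8 of the 10 genes (all but Dlgap2 and Shank2), 22 in number. For Dlg2 and Magi1 the listed starts all lie far inside the gene body, so the windows leave out the 5′ ends of these genes. Of the 22 windows of 250 bases before these starts, 0 overlapped a peak of either list, and over all 32841 such windows 15 overlapped a transgenic peak and 1 a wild-type peak. At the transgenic share of all windows, 22 windows would hold 0.01 peaks, so a lack of peaks at these starts was not detectable. The 4 windows below show the listed start closest to a transgenic peak in each of the 3 genes with most peaks, with the first listed Magi2 start for contrast. They were chosen after the distances were seen. All 4 lie on the plus strand and read 5′ to 3′, and capitals mark each CG dinucleotide, the site of most DNA methylation in mammals.
Magi2, first listed start, chr5:19226796-19227045: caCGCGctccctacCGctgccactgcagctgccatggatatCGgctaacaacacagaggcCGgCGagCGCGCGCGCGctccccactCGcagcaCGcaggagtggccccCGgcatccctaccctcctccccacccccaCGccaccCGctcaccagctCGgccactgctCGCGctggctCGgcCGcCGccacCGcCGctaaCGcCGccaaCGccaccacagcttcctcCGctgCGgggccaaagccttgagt
Magi2, internal start, chr5:19907268-19907517: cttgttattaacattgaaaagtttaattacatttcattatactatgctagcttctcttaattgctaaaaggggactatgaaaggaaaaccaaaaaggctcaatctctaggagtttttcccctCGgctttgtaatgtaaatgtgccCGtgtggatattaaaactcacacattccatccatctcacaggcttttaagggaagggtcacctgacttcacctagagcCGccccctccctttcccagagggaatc
Dlg2, internal start, chr7:92234720-92234969: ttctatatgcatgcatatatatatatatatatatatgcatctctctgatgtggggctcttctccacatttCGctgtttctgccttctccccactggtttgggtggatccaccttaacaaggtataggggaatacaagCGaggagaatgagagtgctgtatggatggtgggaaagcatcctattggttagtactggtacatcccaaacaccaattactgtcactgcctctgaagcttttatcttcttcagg
Anks1b, internal start, chr10:90575477-90575726: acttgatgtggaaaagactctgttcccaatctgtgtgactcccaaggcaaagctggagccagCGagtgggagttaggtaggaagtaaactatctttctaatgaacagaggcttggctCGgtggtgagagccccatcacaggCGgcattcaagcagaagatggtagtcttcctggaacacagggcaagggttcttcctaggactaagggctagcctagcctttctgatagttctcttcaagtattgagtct

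The first Magi2 window holds 29 CG dinucleotides, and the internal windows of Magi2, Dlg2 and Anks1b shown hold 3, 2 and 3. That contrast is not a rule for first and internal starts. The windows before the internal Anks1b starts at 90829654 and 90829843 hold 30 and 38. The first listed windows of Dlg1 and Dlgap1 hold 9 each, and that of Anks1b holds 20. CG reads alike on both strands, and 92.1% of all 32841 windows hold at least 1, with a median of 6. At least 10 were counted in 8 of the 22 windows of the scaffold genes and in 37.8% of all windows. The peak nearest to any of these starts lay 7.39 kb before the internal Magi2 window. The nearest peaks to the Dlg2 and Anks1b windows shown lay 14.8 kb and 18.7 kb away. The first Magi2 window was 137 kb from a transgenic peak.

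All 20 transgenic peaks and the wild-type peak lay inside gene bodies and 0 in the 2 kb flanks. The flanks are short: the chromosomes give 18.1 transgenic peaks with them and 18 without, so a lack of peaks there was not detectable. Of the 17 transgenic peaks in genes with a listed start, the summit was a median of 220 kb from the nearest one (range 7.69 to 691 kb). The listed starts miss the 5′ end of Dlg2, whose body begins at 90476188 and whose first listed start is 91090786. Its peak at 90498952 therefore counts as 592 kb from a start, although it lies 22.8 kb into the gene. This peak raises the median. A long noncoding RNA gene overlapped 4 of the 20 peaks: Gm41609 in Dlgap1, C030037F17Rik in Dlgap2 and Gm14372 at both Shank2 peaks, which lie 51 bp apart. The share of the whole transgenic list that overlaps such a gene was not computed, so whether 4 is many or few cannot be told. Exons and introns were not separated here.

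Among the membrane-associated guanylate kinases, Dlg2 held all the DLG peaks. Dlg2, which encodes PSD-93, spans 1.97 Mb (chromosome 7, 90476188 to 92449246) and is the longest of the 10. It held 0 wild-type peaks where its chromosome gives 0.708, and 5 transgenic peaks (interval 1.62 to 11.7) where 4.43 are given. The strongest of the 5 lay at chromosome 7, 92037321 to 92037431, and rested on 8 fragments (fold enrichment 4.53, q 0.0742). The next by p lay at 90498952 to 90499108 (7 fragments, fold 3.96), 22.8 kb into the gene, and at 91071278 to 91071388 (7 fragments, fold 3.86). Between the latter and the strongest peak ran 966 kb with no transgenic peak. The 5 peaks thus fell as 3 in the first 30.2% of the gene and 2 from 79.1% of it on.

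Dlg1 and Dlg4 held 0 peaks in both lists, and neither could have been told from the background. Dlg1 encodes SAP97, spans 210 kb (chromosome 16, 31663443 to 31873356) and would hold 0.589 transgenic peaks at the density of its chromosome. Dlg4 encodes PSD-95, the most abundant scaffold of the mature excitatory synapse, in 28.3 kb (chromosome 11, 70017203 to 70045535), where 0.0745 are given. An observed 0 allows up to 3.69 peaks (the upper bound of the exact Poisson 95% interval). The nearest transgenic peak to a listed start was 76.5 kb away for Dlg1 and 1040 kb away for Dlg4. The other DLG genes, Dlg3 and Dlg5, held 0 in both lists, which leaves the family with 5 transgenic peaks where 5.46 are given.

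The SAPAP genes Dlgap1 and Dlgap2 link the DLG layer to the SHANK layer. Dlgap1 (852 kb, chromosome 17, 69969073 to 70821413) was the gene with peaks in both lists. Its wild-type peak, at 70182287 to 70182343, rested on 5 fragments, the minimum in that list (fold 3.60, q 1), and its chromosome gives 0.298. Its 2 transgenic peaks, where the chromosome gives 2.11, lay at 70210234 to 70210344 (7 fragments, fold 3.63, q 0.168) and at 70787022 to 70787257 (6 fragments, fold 3.34). The first of them was 27.9 kb from the wild-type peak, and 0 pairs of peaks from the 2 lists came within 10 kb in any of the 10 genes. Dlgap2 (758 kb, chromosome 8, 14095776 to 14853426) held 1 transgenic peak, at 14757160 to 14757333 (6 fragments, fold 3.32, q 0.238), where 2.1 are given. Dlgap3 and Dlgap4 held 0, and the family held 3 transgenic peaks where 4.73 are given.

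Of the MAGI genes, Magi2 held the strongest peak of the set and Magi1 held none. Magi2 (1.49 Mb, chromosome 5, 19219387 to 20704792) encodes S-SCAM, a scaffold of excitatory and inhibitory synapses. It held 4 transgenic peaks (interval 1.09 to 10.2) where 3.27 are given, and 0 wild-type peaks where 0.391 are given. The strongest, at chromosome 5, 19899761 to 19899880, rested on 9 fragments with a fold of 5.43, and by p it was number 49 of the 6253. It carried the lowest q of the list, 0.0673, a value listed for 502 peaks. The next lay at 20598620 to 20598763 (8 fragments, fold 4.34, q 0.0776) and at 20345038 to 20345148 (6 fragments, fold 3.80). The first 680 kb of the gene held 0. Magi1 (608 kb, chromosome 6, 93675453 to 94283929) held 0 peaks in both lists. Its chromosome gives 1.56 transgenic peaks and the sequence within 5 Mb on either side gives 1.96, so the 0 lies within counting error. Of coding genes in its length class, 81.0% held a transgenic peak. Magi3, the third of the family, held 1.

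The SHANK genes encode the deep layer of the scaffold. Shank2 (448 kb, chromosome 7, 143978077 to 144426043) held 2 transgenic peaks (interval 0.242 to 7.22) where 1.01 are given. They lay at 144400333 to 144400468 and at 144400520 to 144400646, only 51 bp apart, and are 1 place rather than 2. Both rested on 5 fragments, the fewest in the transgenic list, with folds of 2.92 and 2.86 and q values of 0.363 and 0.374. With peaks merged within 1 kb, Shank2 held 1 where 0.994 are given, a ratio of 1.01 (0.0255 to 5.61). The 10 genes then held 19 transgenic peaks where 17.8 are given, a ratio of 1.07 (0.643 to 1.67). All other counts here are of unmerged peaks. Shank3 (67.2 kb, chromosome 15, 89493013 to 89560261) held 0 in both lists, where 0.186 transgenic peaks are given. Shank1 also held 0.

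Of the 10 genes Anks1b had the most transgenic peaks per Mb. It encodes AIDA-1, an ankyrin repeat and SAM domain protein that binds PSD-95, and spans 1.10 Mb (chromosome 10, 89872915 to 90973300). It held 0 wild-type peaks where 0.268 are given and 6 transgenic peaks (interval 2.2 to 13.1) where 2.80 are given. That is 5.43 peaks per Mb (1.99 to 11.8), beside 2.54 over its chromosome and 3.0 within 5 Mb on either side. The ratio to the chromosome was 2.14 with an interval of 0.785 to 4.66, which includes 1. Against the lower density of coding gene bodies on that chromosome, which gives 1.87 peaks, the ratio was 3.22 and its interval (1.18 to 7.0) lay above 1. Whether Anks1b exceeds the background thus depends on the density set beside it. All coding genes over 1 Mb together held 3.01 transgenic peaks per Mb, which lies inside the Anks1b interval of 1.99 to 11.8. Anks1b was singled out as the highest of the 10 genes after the values were seen. The strongest peaks lay at 89918830 to 89918940 (7 fragments, fold 4.31, q 0.0895), at 90285649 to 90285856 (7 fragments, fold 4.29, q 0.0895) and at 90670249 to 90670359 (7 fragments, fold 3.88, q 0.132). The 6 peaks were spread between 4.18% and 72.5% of the gene, and the longest stretch with none, 303 kb, was its 3′ end. Anks1b was among 26 coding genes with 6 or more transgenic peaks. Among the 59 coding genes over 1 Mb it was number 9 by the ratio to the chromosome, while Magi2 was number 24 and Dlg2 number 28.

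**Figure D2:**
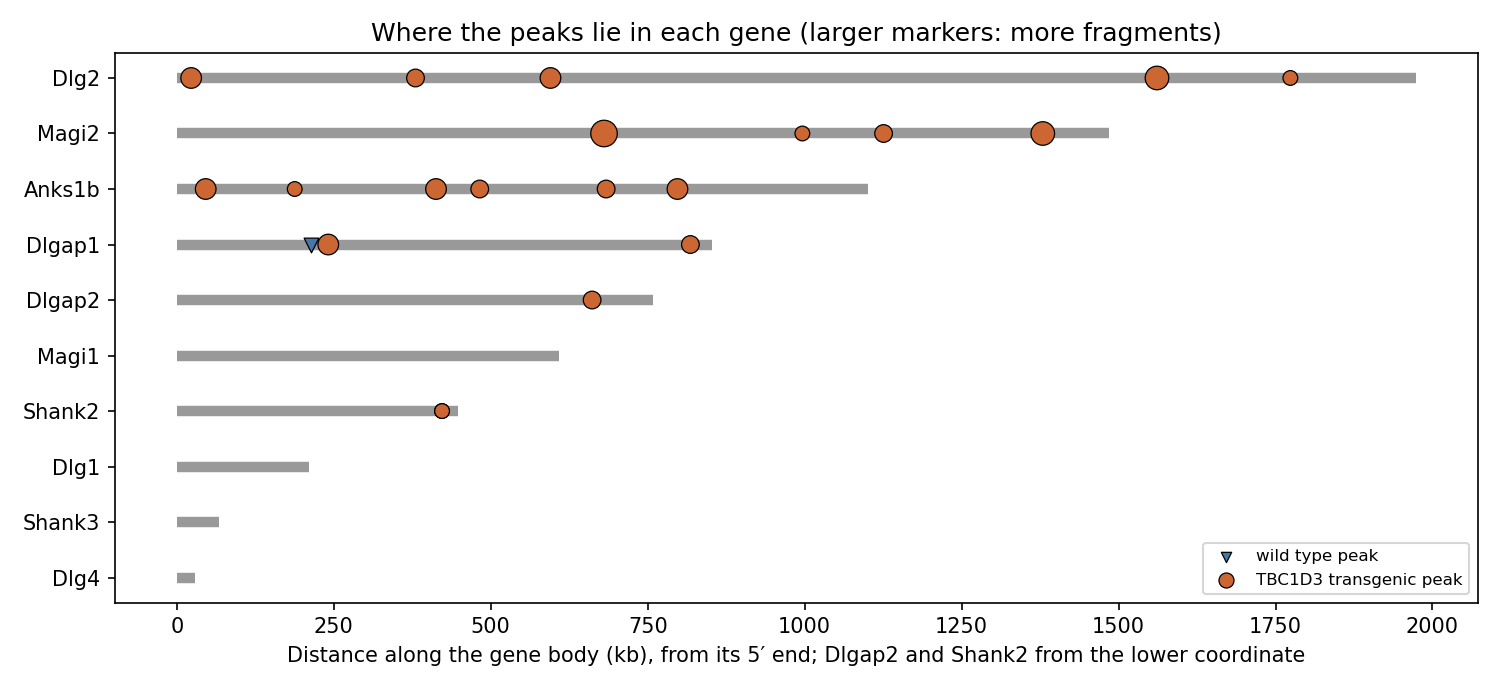
Positions of the 21 peaks along the 10 gene bodies (grey bars, in kb), from the 5′ end, or from the lower coordinate for Dlgap2 and Shank2, whose strand was not listed. Circles are transgenic and the triangle is the wild-type peak, with larger markers for more fragments (5 to 9); the 2 Shank2 peaks, 51 bp apart, fall on 1 point.

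Sorted by length, the 3 genes over 1 Mb (Dlg2, Magi2 and Anks1b) held 15 of the 20 transgenic peaks where their chromosomes give 10.5, a ratio of 1.43 (0.80 to 2.36). The 3 genes of 500 kb to 1 Mb (Dlgap1, Dlgap2 and Magi1) held 3 where 5.76 are given, a ratio of 0.52 (0.107 to 1.52). Shank2 and Dlg1, of 100 to 500 kb, held 2 where 1.60 are given, and Dlg4 and Shank3, under 100 kb, held 0 where 0.261 are given. The intervals of these groups overlap. Over all coding genes the same ratio was 1.25 over 1 Mb, 1.14 at 500 kb to 1 Mb, 0.733 at 100 to 500 kb and 0.436 under 100 kb, so long coding genes as a whole were denser than short ones. At the density of its length class for each gene, the 10 genes would hold 21.5 transgenic and 2.67 wild-type peaks, beside the 20 and 1 seen. Across the 10 genes, all read from 1 library, gene length and transgenic peak number were correlated (Pearson r 0.837, Spearman rho 0.859). Longer genes hold more peaks at any even density, so these values show nothing particular to the scaffold genes. Over all 21523 coding genes, most of them short and with no peak, the same values were 0.627 and 0.288. The 2 sets differ in their range of lengths, so their correlations cannot be ranked.

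**Figure D3:**
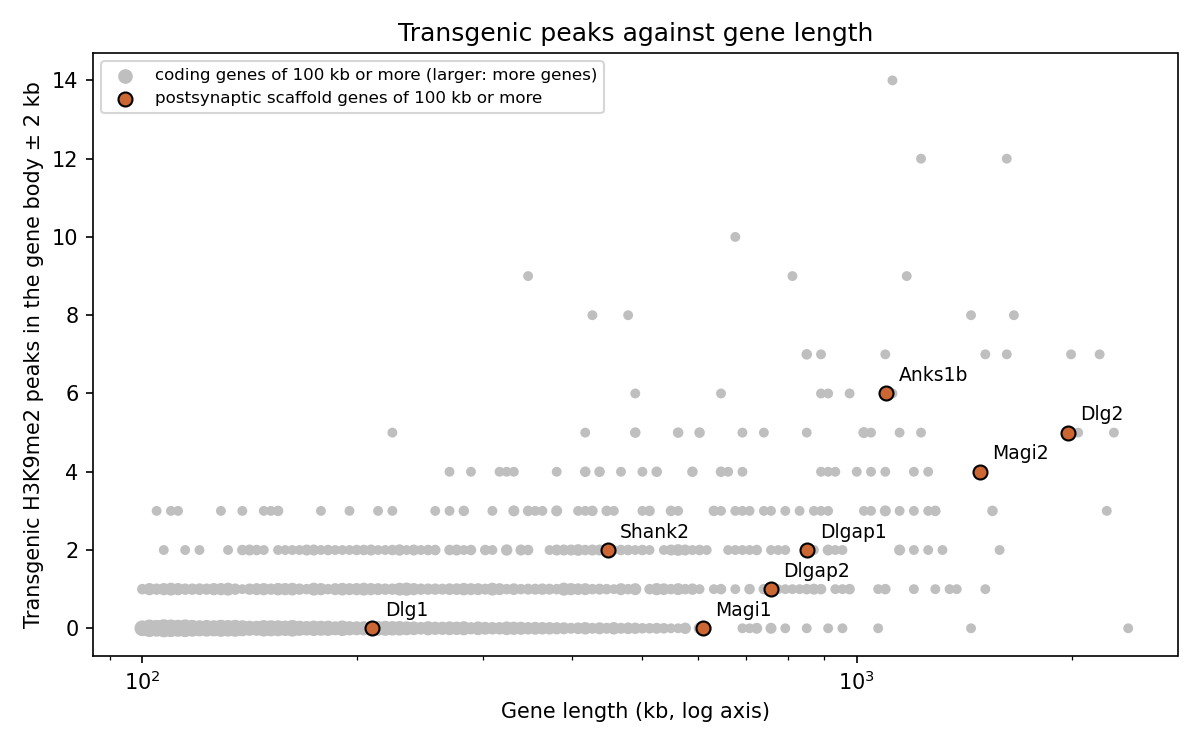
Transgenic peaks per gene (body ± 2 kb) against gene length in kb on a log axis, for coding genes of 100 kb or more (grey, larger for more genes) and the scaffold genes of that length (orange). The scaffold genes lie among other genes of their length, with Anks1b at 6 peaks and Magi1 and Dlg1 at 0.

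In strength the peaks in scaffold genes lay within the range of their list. The 20 transgenic peaks had a median fold of 3.71 (range 2.86 to 5.43) and a median of 6 fragments (range 5 to 9), and all 6253 had a median fold of 3.62 (2.53 to 6.52) and 6 fragments (5 to 22). Of the 20, 5 had a q at or under 0.1, as had 23.1% of the list. The 5 were the 2 strongest of Magi2, the strongest of Dlg2 and 2 of Anks1b. A fold of at least 5 was reached by 1 of the 20, in Magi2, and by 2.65% of the list.

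Of 30 other genes of the postsynaptic compartment (the remaining DLG, SAPAP, MAGI and SHANK genes, the Homer genes, Cnksr2, Lrrc7, Kalrn, Iqsec1, Iqsec2, Grip1, Grip2, Pick1, Sipa1l1, Baiap2, Begain, Mpp2, Cask, the Lin7 genes, Nos1, Camk2a, Camk2b, Gphn and Erbin) 5 held a transgenic and 0 a wild-type peak. That is 16.7% with a transgenic peak, beside 5.69% of all coding genes, and the shares of their length classes give 5.19 and 0.984 genes. Their 10 transgenic peaks compare with 12.2 at the density of their chromosomes (ratio 0.818, 0.392 to 1.5). Iqsec1, an activator of Arf GTPases, held 3 where 0.847 are given, with a ratio of 3.54 (0.73 to 10.4). Grip1, a PDZ protein that binds AMPA receptors, held 3 where 1.62 are given. Lin7a, a small PDZ adaptor, held 2 where 0.40 are given (ratio 5.0, 0.605 to 18.1). Magi3 and Lrrc7 (densin-180) held 1 each, where 0.566 and 1.34 are given. In these 5 genes, too, each interval of the ratio included 1.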

How the data were processed

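H3K9me2 ChIP-seq of mouse embryonic cortex was deposited as 1 peak list per genotype, and each group was taken from the genotype label. The authors used MACS version 2.1.0.20150420, per the file headers, to call peaks in each library against its own input, at a p cutoff of 0.001 with no shift model and with summit calling. The submitters' processing notes name BWA and mm10. The deposited pileup signal counts extended fragments at the summit, after scaling to the smaller of ChIP and input, per the file headers. Dividing by the scale (0.951 for the wild type, 1 for the transgenic) gave whole fragments within 0.00491. The deposited fold enrichment ratio, −log10 p and −log10 q are the authors' values per peak. The headers say that q was not calculated, yet values are listed and were used as listed. Peak width in bp, another deposited column, was read from the authors' lists.

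Depth was 26735120 ChIP and 25431051 input tags for the wild type, and 20697113 and 20968853 for the transgenic. Genes came from a RefSeq table of GRCm38.p6 (chromosomes 1 to 19 and X, starts from 3 Mb on). Chromosome density is the number of peaks over the span from 3 Mb to the last gene or peak. Intervals are exact Poisson 95% intervals, or exact binomial for shares, computed with scipy 1.17.1. Counting was tested on simulated data. All 10 genes are described, and single peaks are all those of a gene with up to 3 in a list, otherwise the 3 of lowest p. Genes of the list of 30 other postsynaptic genes with a peak are named; some genes first listed are not reported here. The genes, lists and rules were chosen with earlier results of these data known. Alternatives were stricter peak lists, merging, other gene limits and other densities. No genome sequence was used, so peak sequences are not printed.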

Additional observations from a re-analysis of the deposited data

How the results depend on the processing

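With 1 library per genotype no library could be left out, and a median of 6 fragments per peak limits what the lists show. No paired analysis was possible because each genotype has 1 library. A fold of at least 5 (62 wild-type and 166 transgenic peaks) left 0 wild-type peaks in the 10 genes, a ratio of 0 with 0 genes, and 1 transgenic peak in 1 gene, a ratio of 1.90 (interval 0.0481 to 10.6). Of the 30 other genes 0 then held a transgenic peak. A −log10 p of at least 5 (185 and 2036 peaks) left 0 wild-type peaks, a ratio of 0 with 0 genes, and transgenic peaks in 3 of the 10 and 1 of the 30 genes. The transgenic list shortened to 743 peaks by p had peaks in 2 of the 10 and 0 of the 30. The filters shorten the lists and also select on strength, and what each part does to the ratios was not tested. Gene by gene, 15 of 169 recomputed ratios left their interval. Most of the 169 could not move, because a ratio of 0 stays 0 when a list is shortened or another density is used. Only 6 genes had a transgenic and 1 a wild-type ratio above 0. All 15 changes fell on these under the stricter lists. The interval of a count of 1 or more never includes 0, so a gene that lost all its peaks always counted as changed. The shortened lists give few peaks to lose: at a fold of at least 5 the chromosome gives Dlg2 0.139. The interval of its ratio of 0 then runs from 0 to 26.6 and includes the main value of 1.13. These changes therefore cannot tell a dependence on peak strength from the loss of counts. A fold of at least 5 took Magi2 to 12.5, which is 1 peak where 0.0801 are given. Its interval of 0.316 to 69.5 includes 1 and the main value of 1.23. The same filter took Dlg2, Dlgap1 (both libraries), Dlgap2, Shank2 and Anks1b to 0. A −log10 p of at least 5 took Dlgap1 (both), Dlgap2 and Shank2 to 0, and the shortened list took Dlgap1, Dlgap2, Shank2 and Anks1b to 0. Against coding gene bodies the Anks1b ratio of 2.14 was 3.22 (1.18 to 7.0). The transgenic ratio of 1.10 over the 10 genes was 1.46 (0.894 to 2.26) against coding gene bodies, 0.959 against 5 Mb on either side, and 0.848 with the −log10 p filter. Added after seeing the data, it was 0.914 without Anks1b, 1.10 without Dlg2 and 1.01 with peaks of 7 or more fragments, which left 4 genes with a peak.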

Other observations

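Scaffolds of the presynaptic active zone face the genes above across the synapse, and 17 of them (Pclo, Bsn, the Rims, Erc, Ppfia and Unc13 genes, Rimbp2 and Tspoap1) were counted in the same way. The list was added after the postsynaptic values were seen. A transgenic peak was found in 4 of the 17 and a wild-type peak in 2, where the shares of their length classes give 4.11 and 0.852. Together they held 14 transgenic peaks where their chromosomes give 11.1 (ratio 1.27, 0.692 to 2.12). Their 4 wild-type peaks compare with 1.38 (ratio 2.90, 0.789 to 7.41). At the densities of their length classes they would hold 9.63 transgenic and 1.19 wild-type peaks. Erc2, which encodes the active zone protein CAST, spans 856 kb (chromosome 14, 27622275 to 28478537) and held 3 wild-type peaks (interval 0.619 to 8.77) where its chromosome gives 0.332, and 7 transgenic peaks (2.81 to 14.4) where 2.30 are given. Both intervals lie above the chromosome's number. The sequence within 5 Mb on either side gives 0.946 wild-type peaks, which the interval includes (ratio 3.17, 0.654 to 9.26), and 2.75 transgenic peaks (ratio 2.54, 1.02 to 5.24). Erc2 was singled out as the highest of 17 genes after its values were seen. Its wild-type and transgenic peaks came no closer to each other than 86.5 kb. Unc13c, a vesicle priming factor, held 1 wild-type and 4 transgenic peaks where 0.184 and 1.39 are given, and the wild-type peak was 17.6 kb from a transgenic one. Erc1 held 2 transgenic peaks and Rimbp2 held 1, where 0.716 and 0.438 are given.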
